A study of Homo sapiens with 6 samples.

Results

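Osmotic stress genes were followed in freeze-dried human cells: NFAT5 and 7 genes that act in osmolyte uptake or synthesis, water transport, protein folding or kinase signaling when cells lose water. The 8 genes (NFAT5, SLC5A3, AKR1B1, SLC6A6, SLC38A2, SGK1, HSPA4L and AQP3) were taken by symbol for their known roles, by a rule that uses no measured value although earlier results of these data were known, out of 23284 gene symbols, and all 8 were among the 11134 genes tested, whose mean in the controls or in the lyophilized samples exceeded 1 FPKM. The samples were 6 libraries of GM12873, an Epstein-Barr virus-transformed B-lymphoblastoid cell line, so that every library comes from a single line. The 3 control samples were washed in PBS and put directly into TRIzol, and the 3 lyophilized samples were washed in PBS, freeze-dried in 0.1 M trehalose in PBS, kept dry at room temperature for 2 weeks and then put into TRIzol. Neither group received a separate osmotic treatment. Trehalose, freeze-drying and the 2 weeks of storage were always applied together, so their parts cannot be told apart. The paper lists each control and the lyophilized sample of the same number as a pair, while the labels give replicate numbers.

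Cells that shrink in a hypertonic medium accumulate small organic osmolytes, such as myo-inositol, taurine, neutral amino acids and sorbitol, which restore volume without disturbing proteins. NFAT5, also called TonEBP, is the Rel family transcription factor that switches on many of the transporters and enzymes for these osmolytes, and it binds a DNA element named TonE. Lymphocytes depend on NFAT5 for growth in hypertonic surroundings. Trehalose is a sugar that stabilizes membranes and proteins during drying.

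The identity of the line was visible in the data. All 6 B cell markers and all 5 markers of Epstein-Barr virus-transformed B cells had mean values above 1 FPKM, with summed levels of 2872 to 3788 FPKM and 942 to 1583 FPKM in the controls and 2612 to 3505 FPKM and 796 to 1375 FPKM in the lyophilized samples. Markers of T cells, myeloid cells, fibroblasts and erythroid cells stayed under 1 FPKM each, CD3G was listed at 0 in every library, and of the epithelial markers KRT18 alone exceeded 1 FPKM, at a mean of 1.17. The step that a single read adds to the lowest FPKM values gave relative depths of 0.655, 0.9 and 1.083 for controls 1 to 3 and of 1.239 and 1.203 for lyophilized samples 1 and 2, with lyophilized sample 3 set to 1. Control 1 was thus the shallowest library and its partner the deepest.

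The 8 genes spanned a wide range of levels, and the order below is of FPKM, a level per transcript length, over all 6 libraries. AKR1B1, the aldose reductase that makes sorbitol from glucose, was the highest with a mean of 74.7 FPKM, above 91.8% of the genes tested. SLC38A2, a sodium-coupled transporter of neutral amino acids, followed at 27.5 FPKM, and HSPA4L, an HSP110 family chaperone induced by osmotic and heat stress, at 14.3 FPKM. SLC5A3, the sodium-dependent myo-inositol transporter, had 8.36 FPKM, SLC6A6, the taurine transporter, 7.01 FPKM, and NFAT5 itself 6.37 FPKM. SGK1, a kinase that is induced by cell shrinkage and raises the activity of ion and amino acid transporters, had 2.23 FPKM. AQP3, a channel for water and glycerol, was the lowest at 0.918 FPKM, above only 0.386% of the genes tested. AKR1B1, SLC38A2, SGK1 and AQP3 did not overlap in range with the next gene above or below in this order, although the lowest SLC38A2 value, 20.2 FPKM, lay close to the highest HSPA4L value, 18.6 FPKM. The ranges of HSPA4L, SLC5A3, SLC6A6 and NFAT5 ran into one another, although HSPA4L exceeded SLC5A3 in all 6 libraries and SLC6A6 exceeded NFAT5 in 5 of 6.

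**Figure D1:**
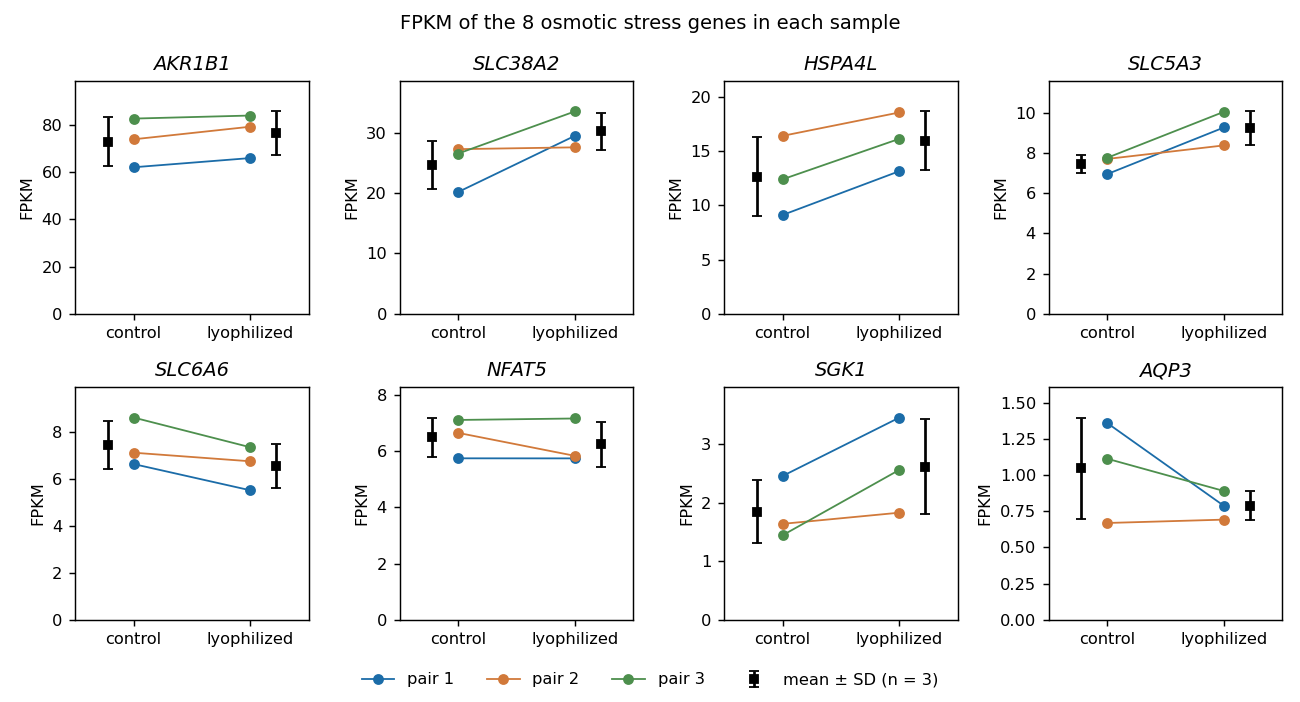
FPKM (y axis, linear, from 0) of each of the 8 genes in control and lyophilized samples (x axis), with a line for each pair and the group mean ± SD (n = 3) in black. SLC5A3 and SLC38A2 are the genes whose lyophilized samples all lie above all controls, while HSPA4L and SGK1 rise within every pair but overlap between groups.

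The question asked of these genes was whether their mRNA levels, as read after drying and storage, differ from those in fresh cells. None of the 8 genes passed an adjusted p of 0.05 in the comparison of 3 controls with 3 lyophilized samples (limma on log2(FPKM + 0.1), Benjamini-Hochberg adjustment over all genes tested), where 0.575% of all tested genes did, 0.018% as higher and 0.557% as lower. Before adjustment, 1 of the 8 had a p below 0.05 in limma, against 1573 of 11134 genes overall. With the pair number as a replicate block, 4 of the 8 genes passed, SLC5A3, SLC38A2, SGK1 and HSPA4L, all of them higher in the lyophilized samples, where 30.7% of the tested genes passed, 15.9% as higher and 14.9% as lower. The median log2 fold change of the 8 genes was 0.19, against 0.04 over all genes tested. Lower or higher values in such bulk samples cannot tell fewer expressing cells from less RNA per cell. FPKM is relative to the other RNA of a library, so a gain of some RNAs cannot be told from a loss of others. According to the paper, the cells were flash-frozen with no time given for trehalose to enter them. Rose, fell, higher and lower refer here to FPKM alone, and the causes were not tested.

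Of the 3 osmolyte transporters among the 8 genes, SLC5A3 and SLC38A2 were higher and SLC6A6 lower in every pair. SLC5A3 had 6.95, 7.71 and 7.77 FPKM in controls 1 to 3 and 9.28, 8.39 and 10.1 FPKM in lyophilized samples 1 to 3. The groups did not overlap, and the lyophilized mean of 9.24 ± 0.84 FPKM was 1.24 times the control mean of 7.48 ± 0.45 FPKM (SD, n = 3 each). The difference on the log2 scale was 0.30. In limma the standard error was 0.12 and the adjusted p 0.325 without the block, and 0.09 and 0.0335 with it. In the gene annotation of GRCh37, the SLC5A3 transcript shares 168 exonic bases with MRPS6, a mitochondrial ribosomal protein gene on the same strand at the same locus. These bases are 1.45% of the SLC5A3 transcript and 18% of that of MRPS6, which was at 79.7 FPKM over the 6 libraries and had a log2 fold change of 0.07 (adjusted p = 0.76 in limma), so the division of reads between both genes is uncertain. A long noncoding RNA gene on the same strand also spans 11552 exonic bases of the 11566 nt SLC5A3 transcript. It has no FPKM values here, so reads from it could not be told apart from those of SLC5A3.

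SLC38A2 had 20.2, 27.3 and 26.6 FPKM in controls 1 to 3 and 29.5, 27.6 and 33.6 FPKM in lyophilized samples 1 to 3. These groups did not overlap either, but by a narrow margin, since lyophilized sample 2 exceeded control 2 by a factor of only 1.01. The means were 24.7 ± 3.92 and 30.3 ± 3.05 FPKM (SD, n = 3 each), and the log2 fold change was 0.30 ± 0.15 (SE; adjusted p = 0.403 in limma; with the replicate block, standard error 0.09, adjusted p = 0.0351). SLC5A3 and SLC38A2 were thus 2 of 8 genes with all lyophilized samples above all controls, against 9.66% of the tested genes, and none of the 8 had them all below, against 12.6%. SLC38A2 is overlapped in the annotation by an antisense transcript, SLC38A2-AS1, and the library kit does not mark strand.

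SLC6A6 moved the other way. SLC6A6 had 6.65, 7.13 and 8.64 FPKM in controls 1 to 3 and 5.53, 6.77 and 7.36 FPKM in lyophilized samples 1 to 3. The groups overlapped, and the lyophilized sample was the lower in all 3 pairs. The log2 fold change was -0.19 ± 0.16 (SE; adjusted p = 0.602 in limma), and it did not pass with the replicate block (adjusted p = 0.13). The taurine and the myo-inositol transporter therefore had opposite directions in each of the 3 pairs, and whether their changes differ was not tested. The GRIP2 gene on the other strand overlaps 243 exonic bases of SLC6A6 and had a mean of 0.000857 FPKM.

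For osmolyte synthesis, AKR1B1 had 62.1, 74 and 82.8 FPKM in controls 1 to 3 and 66, 79.3 and 84.1 FPKM in lyophilized samples 1 to 3. Lyophilized samples were higher by a factor of 1.06, 1.07 and 1.02 in pairs 1 to 3, far less than the factor of 1.33 between the lowest and the highest control. The log2 fold change was 0.07 ± 0.15 (SE; adjusted p = 0.851 in limma; 0.291 with the replicate block), and it fell to -0.04 when control 1 was left out.

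SGK1 had the largest fold change of the 8 genes. SGK1 had 2.46, 1.64 and 1.44 FPKM in controls 1 to 3 and 3.45, 1.83 and 2.56 FPKM in lyophilized samples 1 to 3. The groups overlapped, but the value rose in every pair, by a factor of 1.41, 1.12 and 1.77. The mean of 2.62 ± 0.81 FPKM was 1.42 times the control mean of 1.85 ± 0.54 FPKM (SD, n = 3 each), and the log2 fold change was 0.47 ± 0.28 (SE; adjusted p = 0.469 in limma; with the replicate block, standard error 0.15, adjusted p = 0.0428).

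HSPA4L had 9.11, 16.4 and 12.4 FPKM in controls 1 to 3 and 13.2, 18.6 and 16.2 FPKM in lyophilized samples 1 to 3. HSPA4L overlapped between the groups and varied widely among the controls, which spanned a factor of 1.8. Lyophilized samples exceeded their own controls by a factor of 1.44, 1.13 and 1.3. The log2 fold change was 0.36 ± 0.23 (SE; adjusted p = 0.489 in limma; with the replicate block, standard error 0.08, adjusted p = 0.0123, the lowest of the 8 genes in that fit).

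The calls with the block depended on single pairs. Without pair 3 none of the 8 genes passed, with adjusted p values in limma of 0.273 for SLC5A3, 0.0827 for SLC38A2, 0.369 for SGK1 and 0.0652 for HSPA4L. Without pair 1, which holds the shallowest and the deepest library, HSPA4L alone passed (0.0448), and SLC5A3 (0.146), SLC38A2 (0.176) and SGK1 (0.056) did not. Without pair 2 all 4 passed, and SLC6A6 passed as lower (0.0375). The calls over all 11134 tested genes moved in the same order, with 1264 without pair 3, 2194 without pair 1 and 5359 without pair 2. This dependence is therefore not particular to the 8 genes.

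AQP3 had 1.36, 0.669 and 1.11 FPKM in controls 1 to 3 and 0.787, 0.692 and 0.889 FPKM in lyophilized samples 1 to 3. It entered the test only through its control mean of 1.05 FPKM, since the lyophilized mean was 0.789 FPKM. The highest control value came from control 1, the shallowest library, and pairs 1 and 3 were lower and pair 2 higher after lyophilization. Its log2 fold change was -0.32 ± 0.29 (SE; adjusted p = 0.624 in limma, 0.241 with the replicate block).

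NFAT5 had 5.74, 6.64 and 7.1 FPKM in controls 1 to 3 and 5.74, 5.83 and 7.15 FPKM in lyophilized samples 1 to 3. Pairs 1 and 3 differed by less than 1% and pair 2 was lower after lyophilization, by a factor of 0.877. The log2 fold change was -0.06 ± 0.14 (SE; adjusted p = 0.872 in limma; 0.644 with the replicate block). In the annotation, a long noncoding RNA gene on the same strand spans 1588 exonic bases of the 13289 nt NFAT5 transcript. That gene has no FPKM values here, so reads from it could not be told apart. NFAT5 was the steadiest of the 8 genes, with a factor of 1.25 between its lowest and highest library, against 2.39 for SGK1. Of the 8 genes, 5 were higher in all 3 pairs (SLC5A3, SLC38A2, AKR1B1, SGK1 and HSPA4L) and 1 was lower in all 3 (SLC6A6), where 33.4% and 28.8% of all tested genes were.

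**Figure D2:**
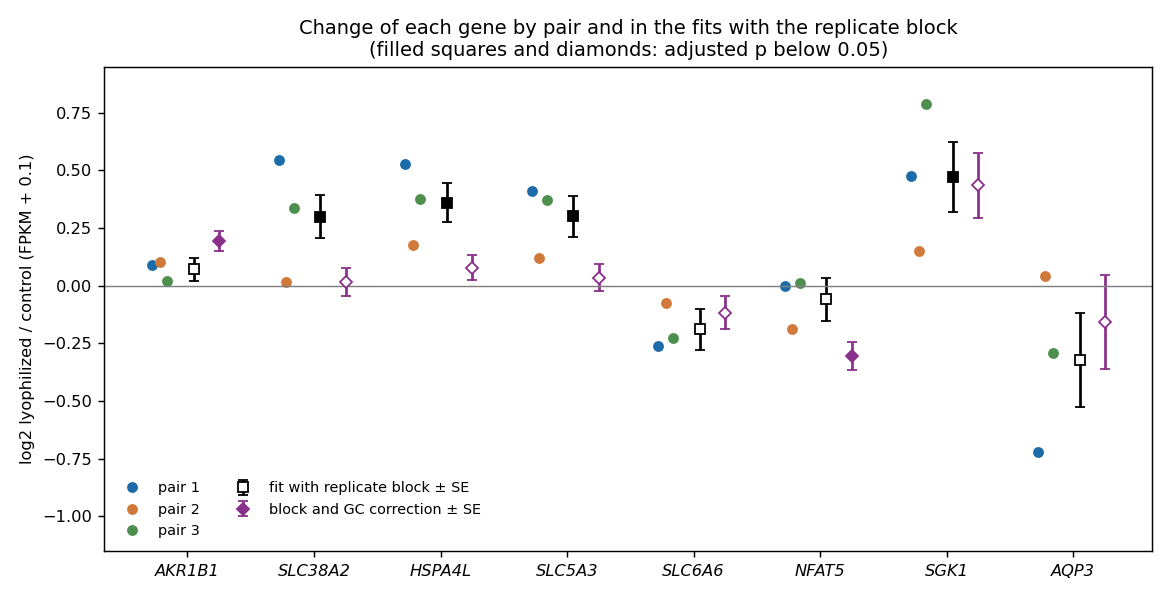
Log2 ratio of lyophilized to control FPKM (y axis, 0.1 added to each value) of the 8 genes (x axis), by pair in circles, and the estimates ± SE of the fit with the replicate block (squares) and of the fit with block and GC correction (diamonds), filled where the adjusted p is below 0.05. SLC38A2, HSPA4L and SLC5A3 drop to near 0 after the GC correction, SGK1 stays at 0.43 and NFAT5 moves from -0.06 to -0.30.

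Across all genes in these libraries, the change followed the GC content of the transcript, and 4 of the 8 genes lie at its AT-rich end. The median log2 fold change was 0.29 in the 1851 tested genes with a transcript GC content under 40%, 0.05 in the 1794 genes from 45% to 50% and -0.25 in the 1496 genes over 60%. SLC38A2 (37.4% GC), HSPA4L (37.5%), SLC5A3 (38.3%) and NFAT5 (39.2%) have AT-rich transcripts, SGK1 (46.9%), SLC6A6 (51%) and AKR1B1 (53%) lie in the middle, and AQP3 (56.4%) has the highest GC content of the 8. Tested genes within 1 percentage point of the GC content of SLC38A2 had a median log2 fold change of 0.30, those near HSPA4L 0.29 and those near SLC5A3 0.28, against 0.30, 0.36 and 0.30 for the genes themselves. Genes near SGK1 had a median of 0.06, whereas SGK1 had 0.47. Genes near NFAT5 had a median of 0.25 with quartiles of 0.18 and 0.33, and NFAT5, at -0.06, lay below the lower quartile. SLC6A6 (-0.19 against a lower quartile of -0.15) and AQP3 (-0.32 against -0.27) also lay below theirs, and AKR1B1 (0.07 against an upper quartile of 0.01) lay above. For these genes the distance to the quartile was smaller than the standard error (0.16 for SLC6A6, 0.29 for AQP3 and 0.15 for AKR1B1). AQP3 also entered the test only through its control mean, which favors a fall.

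When GC content was regressed out of each sample by loess and the block was kept, limma gave a different set of calls, 2 of 8 genes, where 15.8% of the 10745 genes in that fit passed, 9.33% as higher and 6.52% as lower. SLC5A3, SLC38A2 and HSPA4L no longer passed, with log2 fold changes of 0.04, 0.02 and 0.08 and adjusted p values in limma of 0.724, 0.889 and 0.36. SGK1 had 0.43 ± 0.14 (SE) on the log2 scale, with an adjusted p of 0.0734. NFAT5 was lower, by -0.30 on the log2 scale (standard error 0.06, adjusted p = 0.0154 in limma), and its corrected ratios were -0.34, -0.30 and -0.28 in pairs 1 to 3, lower in 3 of 3. AKR1B1 was higher by 0.19 (standard error 0.04, adjusted p = 0.0223), with corrected ratios of 0.27, 0.15 and 0.16. When transcript length was corrected as well, NFAT5 alone passed (log2 fold change -0.30, adjusted p = 0.0165 in limma), where 7.9% of genes did, 4.32% as higher and 3.58% as lower, and AKR1B1 had 0.07 (adjusted p = 0.379). These corrections rest on the longest coding transcript of each gene in GENCODE, which may not be the form these cells express. Without pair 3 the GC-corrected fit called none of the 8 genes (adjusted p = 0.066 for NFAT5), without pair 1 NFAT5 alone (0.0317) and without pair 2 NFAT5, AKR1B1 and SGK1 (0.00861, 0.00515 and 0.0069). Of all 10745 genes in these fits, 994 passed without pair 3, 1554 without pair 1 and 2580 without pair 2.

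**Figure D3:**
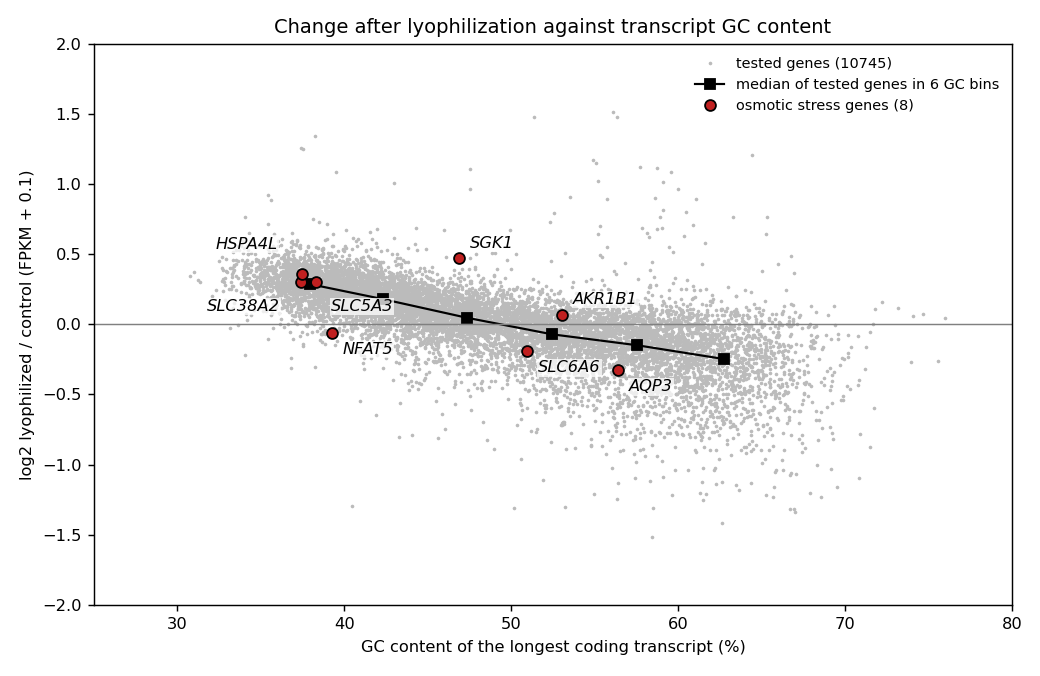
Log2 fold change of lyophilized against control (y axis, FPKM + 0.1, fit without the block) against the GC content of the longest coding transcript (x axis, %) for 10745 tested genes (grey; 6 lie beyond ±2 and are not drawn), with bin medians (black) and the 8 osmotic stress genes (red). SLC38A2 and SLC5A3 sit near the line of medians, HSPA4L slightly above it, SGK1 and AKR1B1 above it and NFAT5, SLC6A6 and AQP3 below it. AQP3 entered the test only through its control mean.

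The loci of the 8 genes are on hg19. NFAT5 is on chromosome 16 from 69599869 to 69738569 (+ strand), SLC5A3 on chromosome 21 from 35445870 to 35478561 (+ strand) and SLC6A6 on chromosome 3 from 14444106 to 14530857 (+ strand). SLC38A2 is on chromosome 12 from 46751971 to 46766645 (- strand), AKR1B1 on chromosome 7 from 134127107 to 134143888 (- strand) and SGK1 on chromosome 6 from 134490384 to 134639196 (- strand). HSPA4L is on chromosome 4 from 128703453 to 128754526 (+ strand), and AQP3 is on chromosome 9 from 33441152 to 33447631 (- strand). Their transcripts range from 1361 nt in 10 exons (AKR1B1) to 13289 nt in 15 exons (NFAT5). SLC5A3 is spliced from only 2 exons, with a transcript of 11566 nt. Positions count from 1, because the locus start in the tables plus 1 matched an annotated transcript start for 8486 of 19500 symbols and the start itself for 1000.

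The promoter windows of the genes were searched for the core of the NFAT5 element, TGGAAA, on both strands, where the other strand reads TTTCCA. RefSeq windows on GRCh38.p14, 250 bases before to 50 after a start, were at hand for 6 of the 8 genes with 11 starts in all, and NFAT5 and SLC6A6 had no entry. The core was in 3 of these 11 windows, against 15.8% of the 12696 windows of tested genes and 20.7% of all 35116 windows. The full TonE consensus was in 2 of 11, against 3.21% and 4.92%. Windows of different starts of a gene are not independent. The windows with a core belong to HSPA4L and SLC38A2, and 30 bases around each are shown, in the direction of the gene with each core in capitals, because NFAT5 is known to act on its targets through this element. The number is the position of the first capital relative to the start.

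HSPA4L, -181 from a start, chr4:127782129-127782158, + strand: agcagcctccatTTTCCAgatctttctcga
HSPA4L, -17 from another start, chr4:127783494-127783523, + strand: ggcgttatgtcaTGGAAAcatgTTTCCAca
SLC38A2, 32 from the start, chr12:46372724-46372753, - strand: ccttagaacgccTTTCCAgtactgctagca

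The second HSPA4L window holds a core on each strand, and together with the SLC38A2 window it matches the full consensus. A match of letters does not show that NFAT5 was bound, and both genes passed the fit with the replicate block but not the fit that also corrected for GC content.

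Wider lists of the osmotic response held 96 genes, of which 69 were tested, the 8 genes included. In the fit without the block 1 of the 69 passed, PIEZO1, a mechanically activated channel that opens when the membrane is stretched. PIEZO1 is among the genes that the study itself called on these libraries, so it is no independent case. With the replicate block 30 of 69 passed, 14 higher and 16 lower, where 30.7% of the tested genes passed. The median log2 fold change of the 69 genes was 0.04, the same as over all genes tested.

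Of 6 tested osmolyte transporters, 3 rose with the replicate block (SLC5A3, SLC38A2 and SLC38A1) and 1 fell (SLC1A5), where 15.9% of all tested genes rose and 14.9% fell. None passed once GC content was corrected. SLC38A1, a close relative of SLC38A2, had 33.6 FPKM over the 6 libraries and a log2 fold change of 0.28 (adjusted p = 0.0343 in limma with the block). SLC1A5, a glutamine transporter, had 57.9 FPKM and a change of -0.26 (adjusted p = 0.0102), and its transcript has 61.3% GC. SLC7A11, the cystine transporter, was the lowest of those tested at 1.48 FPKM and did not pass (0.31, adjusted p = 0.136).

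Of 10 tested genes of osmolyte synthesis and breakdown, none rose and 4 fell with the replicate block, where 15.9% of all tested genes rose and 14.9% fell. They were CSAD, an enzyme of taurine synthesis (log2 fold change -0.62, adjusted p = 0.0237 in limma), GDPD5, which degrades the osmolyte glycerophosphocholine (-0.56, adjusted p = 0.00555), ISYNA1, which makes inositol phosphate from glucose phosphate (-0.42, adjusted p = 0.0179), and PNPLA6, which makes glycerophosphocholine (-0.39, adjusted p = 0.00464). Thus both a producer and a degrader of glycerophosphocholine were lower in that fit. With the GC correction GDPD5 passed (-0.31, adjusted p = 0.0351) and the other three did not, and with length corrected too GDPD5 did not pass either (-0.17, adjusted p = 0.195). In that last fit PNPLA6 had the opposite direction (0.15, adjusted p = 0.0817 in limma), while CSAD (-0.55) and ISYNA1 (-0.16) stayed negative. TREH, the trehalase that splits the protectant sugar, was listed at 0 in all 6 libraries and was singled out here after its values were seen.

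AQP3 was the only 1 of 12 water channels to pass the expression filter, through its control mean of 1.05 FPKM alone. AQP9 was at nearly the same level, with a mean of 0.828 FPKM (0.439 to 1.37) against 0.918 FPKM (0.669 to 1.36) for AQP3. AQP11 had a mean of 0.525 FPKM. Of the 12, 4 (AQP2, AQP5, AQP10 and AQP12A) were listed at 0 in every library. The channels other than AQP3 were named after their values were seen.

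The cell volume channels and ion transporters included PIEZO1. Of 18 tested, 3 rose and 6 fell with the replicate block, where 15.9% of all tested genes rose and 14.9% fell. PIEZO1 changed by -1.13 on the log2 scale (adjusted p = 8.24e-05 in limma with the block and 0.0367 without), TMEM63A, an osmosensitive cation channel, by -0.64 (adjusted p = 0.00188 with the block) and SLC12A4, a potassium-chloride cotransporter, by -0.57 (adjusted p = 0.00436). All of these 3 also passed with the GC correction, at -0.82, -0.46 and -0.32 on the log2 scale. When length was corrected too, PIEZO1 passed at a much smaller -0.27 (adjusted p = 0.0109) and TMEM63A at -0.35 (adjusted p = 0.015), and SLC12A4 did not pass (-0.14, adjusted p = 0.229). LRRC8B, a subunit of volume-regulated anion channels and the lowest of those tested at 1.5 FPKM, had a log2 fold change of 0.10 (adjusted p = 0.615 with the block).

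Of 10 tested osmosensing kinases, 3 rose and 2 fell with the replicate block, where 15.9% of all tested genes rose and 14.9% fell. SGK1 (0.47) and MAP2K6, an activator of the p38 kinase (0.42, adjusted p = 0.00869 in limma), rose most, and MAP3K7 had 0.26 (adjusted p = 0.04). WNK1, a chloride-sensing kinase that controls cation-chloride cotransport, was the most abundant at 27.1 FPKM and fell (-0.32, adjusted p = 0.016), and it alone of the list passed with the GC correction (-0.31, adjusted p = 0.0353), a call that was lost with length corrected too (-0.19, adjusted p = 0.0909).

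Of 10 tested genes of the NFAT family and its partners, 2 rose and 3 fell with the replicate block, where 15.9% of all tested genes rose and 14.9% fell. The calcium-regulated relatives NFATC4 (log2 fold change -0.79, adjusted p = 0.00635 in limma), NFATC1 (-0.57, adjusted p = 0.00508) and NFATC2 (-0.46, adjusted p = 0.0238) fell, and XPO1, the nuclear export receptor, rose (0.28, adjusted p = 0.0263). With the GC correction 3 of 10 fell, NFATC1 (-0.34), NFATC4 (-0.58) and NFAT5 itself (-0.30), where 6.52% of genes did. With length corrected too, NFATC1 (-0.15, adjusted p = 0.241) and NFATC4 (-0.36, adjusted p = 0.103) no longer passed. PARP1, the most abundant of the list at 107 FPKM, had a log2 fold change of 0.003 (adjusted p = 0.969 with the block).

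Of 14 genes listed as chaperones or as targets of NFAT5, 3 rose and none fell with the replicate block, where 15.9% of all tested genes rose and 14.9% fell. The list mixes general stress genes with NFAT5 targets, so its counts do not measure the activity of NFAT5. HSPH1 had a log2 fold change of 0.37 (adjusted p = 0.00976 in limma), HSPA4L 0.36 and HSPA4 0.33 (adjusted p = 0.00586). With the GC correction 6 of 14 rose, HSPB1, DNAJB1, S100A4, LTB, GADD45B and HSPA4, where 9.33% of genes did, and with length corrected too HSPA4 and DNAJB1 did. Before the correction HSPB1 (-0.12) and LTB (-0.08) had the opposite direction. The GC-corrected change of HSPA4 was 0.17 (adjusted p = 0.0326), while HSPH1 (0.13, adjusted p = 0.133) and HSPA4L did not pass. LTA, the most abundant of the list at 303 FPKM, had -0.11 (adjusted p = 0.075 with the block), and HSPA1A, the lowest at 13.5 FPKM, had -0.12 (adjusted p = 0.3), with values that are uncertain because HSPA1B is a near-identical copy and reads were kept only at a unique position.

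**Figure D4:**
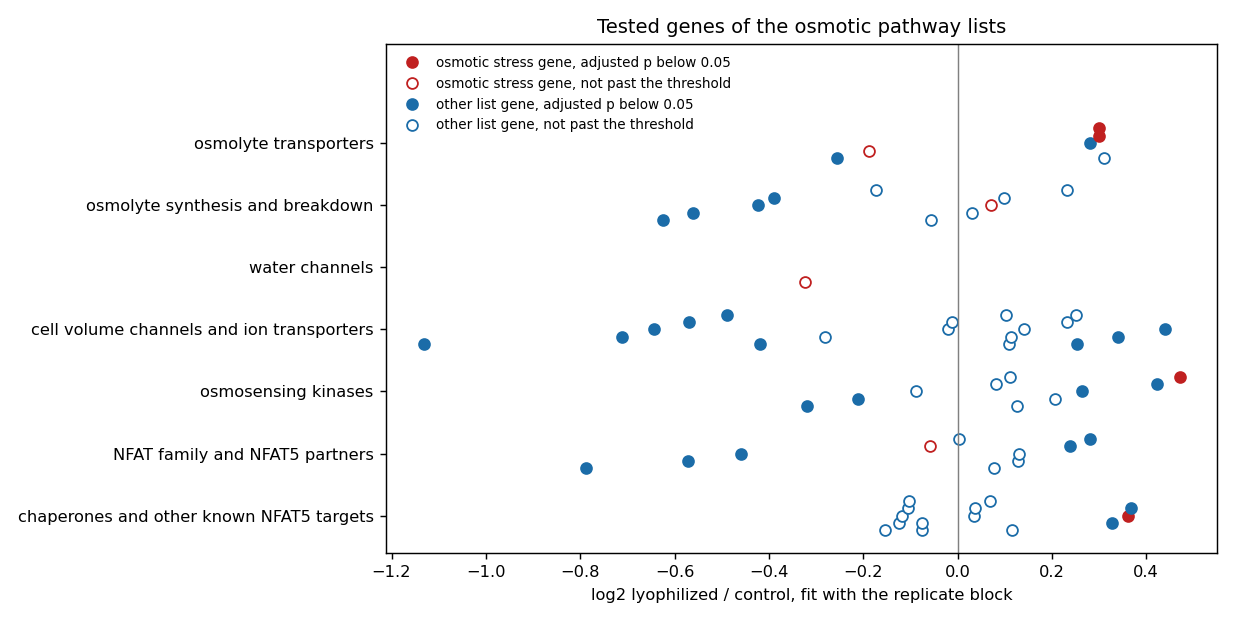
Log2 fold change of lyophilized against control in the fit with the replicate block (x axis) for the 69 tested genes of the osmotic lists, by list (y axis, points spread vertically for legibility), filled where the adjusted p is below 0.05, with the 8 osmotic stress genes in red. Filled points lie on both sides of 0, 14 higher and 16 lower, with PIEZO1 the farthest at -1.13.

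The profile of NFAT5 over the 6 libraries was compared with that of each of the other 11133 tested genes by the root mean square difference of log2(FPKM + 0.1) after centring each gene. The most similar were TMEM131 (0.0351), HP1BP3 (0.0385), ABHD16A (0.0402), CD72 (0.0415) and CNEP1R1 (0.0433). Of the other osmotic stress genes, AKR1B1 was closest, at 0.105 and rank 454, followed by SLC6A6 at 0.113 and rank 621, and SGK1 was farthest, at 0.492 and rank 10609. These differences on the log2 scale are over 6 libraries, which form 3 pairs and differ in depth. Genes were not scaled by their spread, so the distance from the steady NFAT5 also depends on how much a gene varies. A small distance is thus no sign of shared regulation.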

How the data were processed

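Poly(A)-selected RNA from 6 samples was sequenced as single-end reads. According to the study's methods and the submitters' processing notes, reads were mapped to hg19 with TopHat 2.0.7, keeping those with 1 genomic position, and the authors deposited FPKM values from Cufflinks, 1 table per sample (Cufflinks version and annotation not given in the sources used here). FPKM sums ran from 468790 to 524744 per sample. Since read counts are not among the deposited values, counting intervals were not computed. Relative depth was read from ratios of 1:1, 1:2 or 2:1 (within 0.2%) between values under 0.6 FPKM.

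The 24934 records were reduced to 23284 symbols (highest mean FPKM), and 1622 small RNA symbols were set aside. Where a group mean exceeded 1 FPKM, limma 3.58.1 (R version 4.3.3) was applied to log2(FPKM + 0.1), a scale that understates changes of low genes, with a mean-variance trend and an adjusted p threshold of 0.05. The study's Cuffdiff test of unpaired groups needs reads, and its unpaired design was kept for the fit without a block. The paper names the pairs, and deviations from the group means correlated at 0.716, 0.603 and 0.476 within pairs 1 to 3. Whether pairs come from separate cultures is not stated in the labels, so p-values measure the spread between these samples. In the GC and length corrections, a loess curve (span 0.3, degree 2) was subtracted in each sample over 10745 genes with a GENCODE v44 transcript on GRCh37, matched by symbol or synonym. The fits were tested on simulated data.

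The rule for the 8 genes uses no measured value, but the genes and the lists were chosen with earlier results of these data known. List genes named are those past the threshold without the block, up to 4 per list with the largest changes past it with the block, and the most and least abundant tested. Some genes that this rule names are not reported here. The exact tests planned for genes under the expression filter were not needed, as all 8 passed it. Python 3.11.15, numpy 2.4.6, pandas 2.3.3 and matplotlib 3.10.9 were used. Alternatives covered pseudocount, filter, scaling, block, GC and length, trend, records and each sample left out.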

Additional observations from a re-analysis of the deposited data

How the results depend on the processing

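Without the replicate block, none of the 8 genes passed in any of the 14 settings tried, 110 values in all, of which the lowest adjusted p from limma was 0.221. The osmotic lists had 1 call, which became 2 with a pseudocount of 1 or with median scaling, 0 without the filter, and 0 without any 1 of the 6 samples. All tested genes had 64 calls, which became 15 with sum scaling, 0 without the filter, and 0 without any 1 of the 6 samples.

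With the replicate block, the calls were 4, 30 and 3423 in the 8 genes, the lists and all genes. With block and median scaling they were 4, 31 and 3674, and with block and sum scaling 1 (HSPA4L), 26 and 2867, the latter split into 698 higher and 2169 lower against 1766 and 1657. These scalings in the blocked fit, and the GC-corrected fits without a pair, were chosen after seeing the data. With block and GC correction the calls were 2, 17 and 1703, and with length corrected too 1, 7 and 849. Leaving out a pair gave 0 to 5 calls among the 8 genes in the blocked fit (HSPA4L without pair 1, none without pair 3, and SLC6A6 in addition to the 4 genes without pair 2), 14 to 43 in the lists (17 without pair 1) and 1264 to 5359 in all genes (2194 without pair 1). In the GC-corrected fit it gave 0 to 3, 7 to 27 (11 without pair 1) and 994 to 2580 (1554 without pair 1).

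The direction reversed for NFAT5 without control 3 (0.0074; -0.16 to 0.0074 over the samples left out) and, with the block, without pair 2 (0.0049), for AKR1B1 without control 1 (-0.041; -0.041 to 0.17 over the samples left out) or lyophilized sample 3 (-0.0016), and, in the GC-corrected fit without pair 1, for SLC38A2 (-0.067) and AQP3 (0.0034). The causes were not tested. The number of samples (3 a group) limits the precision, and without read counts the number of reads behind the low values of SGK1 and AQP3 is unknown.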
